A study of Mus musculus with 18 samples.

Results

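The genes described here encode 39 components of the DNA replication machinery, out of 55401 genes counted in each library. They were chosen by function, with earlier results of these data known, as a named list matched to the counted genes by symbol. All 39 matched a single gene. The list covers 7 roles: 6 genes of origin recognition and helicase loading, 6 MCM helicase subunits, 6 genes of helicase activation, 8 polymerase and primase subunits, 6 genes of the sliding clamp and its loader, 4 genes of single-strand binding and strand joining, and 3 genes of deoxynucleotide synthesis.

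Polyadenylated RNA was sequenced in 18 libraries of primary mouse cholangiocytes, the epithelial cells of the bile ducts, captured on beads with an antibody to EpCAM after the liver parenchyma had been removed. Wild-type (WT) mice and mice with polycystic liver disease (PLD) were both given tamoxifen, and cells were taken 1 month or 2 months later. A further pair of groups came from PLD mice treated with CPTH6, known as an inhibitor of histone acetyltransferases, or with ML324, known as an inhibitor of KDM4 histone demethylases, and their library titles give 3 months. Each of the 6 groups holds 3 libraries. The gene inactivated in PLD, the promoter that drives its deletion, the age of the mice and the doses are not given in the sources used here. The labels do not say whether replicates are separate animals, so p-values measure only the spread between these libraries, which may be technical. No untreated PLD group at 3 months was analysed here, and the labels describe the sequencing of treated libraries apart from that of untreated ones. Compound, month and sequencing therefore cannot be told apart when treated groups are set against PLD at 2 months.

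Replication starts at origins, where the origin recognition complex, Cdc6 and Cdt1 load the MCM helicase in G1, a step that geminin (Gmnn) blocks after S phase has begun. Cdc45 and the GINS complex then turn the loaded ring into an active helicase, primase and the polymerases copy the strands, the clamp PCNA holds the polymerases on DNA, and RPA covers the exposed single strands. Many of these genes are transcribed at the G1/S transition under E2F factors, which bind short GC-rich sites. The duct epithelium of a healthy adult liver divides rarely, and proliferation of the lining cells is a known feature of liver cysts.

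Promoters were searched for 4 E2F words, TTTCCCGC, TTTGGCGC, TTTCGCGC and TTTGCCGC, on both strands, in windows from 250 bases before to 50 bases after RefSeq gene starts (GRCm38.p6, the assembly of mm10). A window was given for 31 of the 39 genes, and 13 of these (41.9%) held at least 1 E2F word, against 2.60% of 27025 genes with a window. Those 27025 were taken whether or not they were expressed here, while all 39 genes had counts in every library. Counted by window, the shares were 35.1% of 37 and 2.26% of 32851. The word CCAAT, the site of the factor NF-Y, was searched on both strands as well, where its end letters may overlap an E2F word. It stood in 21 of the 31 (67.7%), against 41.1% of all genes. These are matches of letters, and binding was not measured. A piece of 30 bases around an E2F word is shown for the 7 genes that held such a word and changed in PLD at 2 months, in the direction of the gene, with the E2F words in capitals. This set was chosen after the words were seen.
Cdc6: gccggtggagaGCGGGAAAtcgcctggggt
Cdt1: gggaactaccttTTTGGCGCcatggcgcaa
Mcm6: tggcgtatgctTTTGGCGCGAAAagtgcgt
Mcm7: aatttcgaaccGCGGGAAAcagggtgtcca
Rfc3: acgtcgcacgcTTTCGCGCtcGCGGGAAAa
Lig1: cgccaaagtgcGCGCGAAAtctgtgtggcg
Gins3: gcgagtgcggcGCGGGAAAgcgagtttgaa
The pieces lie at chr11:98908002-98908031 for Cdc6 and chr8:122568035-122568064 for Cdt1. Those of Mcm6 and Mcm7 lie at chr1:128359797-128359826 and chr5:138172030-138172059 on the minus strand. Those of Rfc3 (minus strand), Lig1 and Gins3 lie at chr5:151651200-151651229, chr7:13278841-13278870 and chr8:95633507-95633536. Lig1 had 3 windows, and only the window of this piece held an E2F word. That window begins at 13278576, inside the gene, which starts at 13277283. In Mcm6 and Rfc3 a pair of words lies within the piece, overlapping in Mcm6. The 150 bases before the start of Mcm6 (chr1:128359706-128359855, minus strand) held a further E2F word and the CCAAT word on the opposite strand at a pair of places, all in capitals.
Mcm6 upstream: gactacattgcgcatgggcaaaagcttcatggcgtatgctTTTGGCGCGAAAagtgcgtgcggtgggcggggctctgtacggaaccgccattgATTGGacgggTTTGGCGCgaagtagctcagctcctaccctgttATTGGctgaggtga
The 49 bases before the start of Rpa1 (chr11:75348384-75348432, minus strand), the lower gene with the smallest adjusted p at 2 months, held CCAAT and no E2F word. The 55 bases at chr16:23127738-23127792 before Rfc4 held neither. Those before Pold2 (chr11:5878293-5878406, minus strand) held CCAAT on the opposite strand. Rfc4 and Pold2 are among the 3 genes with the largest adjusted p at 2 months. The 150 bases before Fen1 (chr19:10204394-10204543, minus strand), chosen by the same rule, held neither word and are not printed. The 150 bases before Cdt1 (chr8:122567865-122568014), the gene with the smallest adjusted p, also held neither and are not printed. The E2F word of Cdt1 lies after its start, at position 33.
Rpa1 upstream: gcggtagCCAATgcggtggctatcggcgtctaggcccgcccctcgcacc
Rfc4 upstream: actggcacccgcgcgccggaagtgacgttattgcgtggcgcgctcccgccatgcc
Pold2 upstream: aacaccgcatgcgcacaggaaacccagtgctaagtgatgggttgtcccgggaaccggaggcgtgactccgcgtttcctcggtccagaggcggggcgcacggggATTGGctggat
By call in PLD at 2 months, an E2F word stood in 6 of the 11 higher genes with a window, 1 of the 2 lower genes, and 6 of the 18 genes without a call. CCAAT stood in 7 of the 11, 2 of the 2 and 12 of the 18.

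All 39 genes had counts in every library and passed the filter on low counts in each fit. Per kilobase of exon (FPKM, from CPM and exon length), the mean over the 18 libraries ran from 0.451 for Fen1, the flap nuclease, to 58.3 for Pcna. After Pcna came Mcm6 at 15.0 FPKM, Rpa1, the large subunit of RPA, at 13.7, the GINS subunit Gins4 at 11.3, the polymerase delta subunit Pold2 at 10.5 and the DNA ligase Lig1 at 10.4. The origin subunit Orc1 (0.515 FPKM), the GINS subunit Gins3 (0.585) and the replication initiator Mcm10 (0.612) stood near the bottom. Thus subunits of the same complex differed widely in mRNA level, with the MCM ring between 4.04 FPKM for Mcm2 and 15.0 for Mcm6, and GINS between 0.585 and 11.3. Counting ignored strand and left out reads that hit more than 1 gene, and 84.2% of the exon bases of Fen1 and 67.3% of those of Gins2 also belong to other genes, so the levels of these genes are uncertain. The shares were 29.8% for Orc2, 12.6% for Mcm7, 10.7% for Rfc5 and 5.79% for Lig1.

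Library totals ran from 16345740 to 29277311 counts. The cholangiocyte markers Epcam (108 to 984 CPM) and Krt19 (185 to 3885 CPM) were present in every library, beside genes of other liver cells. The summed level of 10 cholangiocyte markers lay between 2264 and 4510 CPM in WT at 2 months and between 12181 and 14044 in PLD at 2 months, and the 10 endothelial markers lay between 6900 and 12287 and between 641 and 1417. WT replicate 3 at 1 month stood apart from its group, with 8877 CPM of cholangiocyte markers against 3322 and 3209. It had 2871 CPM of stellate cell and fibroblast markers against 17930 and 17071. At 2 months WT replicate 1 had counts in 40039 genes, against at most 30332 in any other library. In bulk RNA, fewer cells of a type and less RNA per cell cannot be told apart.

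**Figure D1:**
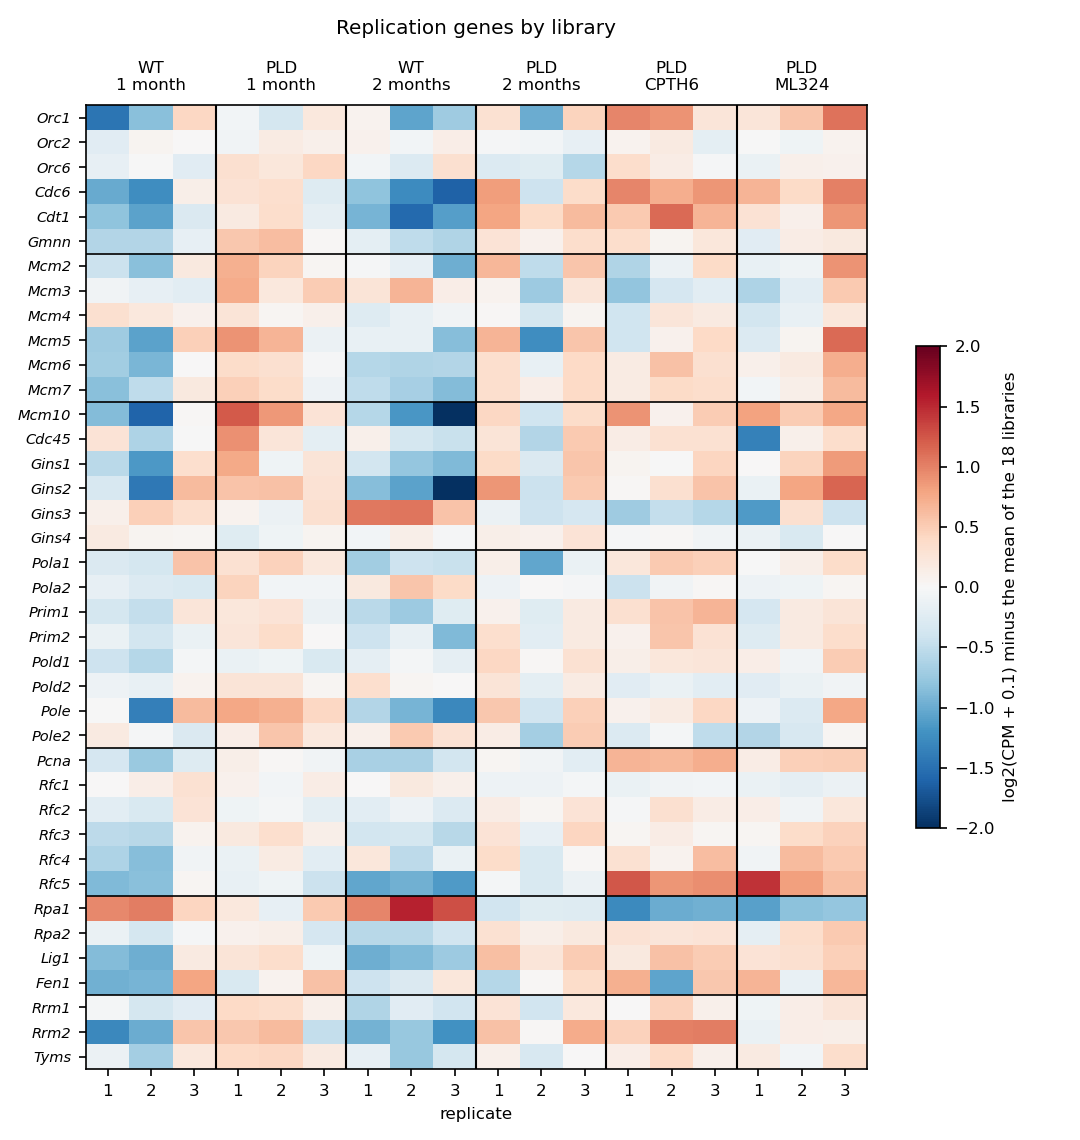
Each row is a replication gene and each column a library; colour is log2(CPM + 0.1) minus the mean of the gene over the 18 libraries, and lines separate the groups and the 7 roles. Red is above and blue below that mean; Rpa1 is red in WT at 2 months (126 to 185 CPM) and blue in the treated groups (26.4 to 37.3 CPM), while Cdt1 is blue in WT at 2 months (4.79 to 7.40 CPM) and red in PLD at 2 months (18.6 to 24.6 CPM).

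At 2 months each of the 7 roles held at least 1 gene that was higher in PLD than in WT. Among the polymerases and primase this was Pole alone, and among the deoxynucleotide genes Rrm2 alone. Their calls were lost in 8 and 7 of the 14 alternative fits described below. Of the 39 genes, 14 were higher and 2 lower than in WT (edgeR quasi-likelihood test, Benjamini-Hochberg adjusted p under 0.05, n = 3 libraries per group), against 19.7% and 20.3% of the 17749 genes tested. The higher genes include the loading factors Cdt1 and Cdc6, the helicase subunits Mcm6 and Mcm7, the ligase Lig1 and the clamp gene Pcna. The lower genes were Rpa1 and Gins3. The median log2 fold change of the 39 was 0.49, against -0.03 over all genes tested. The PLD libraries lay wholly above the WT libraries for 17 genes and wholly below for 4, against 26.1% and 29.3% of all genes. Read against that background, the share called higher (14 of 39) is above and the share called lower (2 of 39) below that of all genes. No test of this difference was made. The list was chosen with earlier results of these data known, so the difference is a description and not independent support. Most cholangiocyte markers were higher in PLD at 2 months too, with 7 of 10 called by the same test, against 19.7% of all genes. At 1 month 4 of 10 were called higher, and the share of all genes is given below. None was called lower in either month, and none was at 0 in a group. Sctr went the other way without a call. At 2 months it had 1.29 to 3.34 CPM in WT and 0.291 to 0.979 CPM in PLD, without overlap. At 1 month it had 1.28 to 9.21 CPM in WT and 0.442 to 1.53 CPM in PLD, with overlap. The 10 hepatocyte markers summed to 664 to 999 CPM in WT and 2483 to 5467 CPM in PLD at 2 months, with 4 of 10 called higher and 3 lower, and 4 of 10 fibroblast markers were called lower. The part of these cell types in the replication values was not tested.

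Among the genes of origin recognition and loading, 3 of 6 rose. Cdt1 (ENSMUSG00000006585.3, chromosome 8 from 122568015 to 122573554, mm10), which brings the MCM ring to origins, stood at 7.40, 4.79 and 6.59 CPM in WT and at 24.6, 18.6 and 22.3 CPM in PLD. Every PLD library was above every WT library, and the change was 1.82 ± 0.24 log2 units (standard error, adjusted p = 0.00034). Its partner Cdc6 stood at 2.52, 1.82 and 1.39 CPM in WT and at 8.02, 3.32 and 5.77 CPM in PLD, a change of 1.59 ± 0.44 (adjusted p = 0.015). Gmnn, the inhibitor of Cdt1, rose as well, from 2.87 ± 0.451 to 4.61 ± 0.441 CPM (SD, n = 3). The origin recognition subunits did not pass the test, with 0.60 ± 0.57 for Orc1, -0.12 ± 0.12 for Orc2 and -0.36 ± 0.16 for Orc6. All 3 origin subunits on the list overlapped between the groups.

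In the MCM helicase, 2 of 6 subunits rose. Mcm7 (ENSMUSG00000029730.16, chromosome 5 from 138164583 to 138172422) stood at 24.5, 22 and 19.2 CPM in WT and at 44.2, 38.4 and 45.9 CPM in PLD, without overlap (0.99 ± 0.25, adjusted p = 0.0094). Mcm6 (ENSMUSG00000026355.11, chromosome 1 from 128331590 to 128359664) had 44.9, 43.9 and 44.1 CPM in WT and 83.7, 60.2 and 87.4 CPM in PLD. WT libraries agreed closely here, and PLD replicate 2 was the lowest of its group (0.82 ± 0.23, adjusted p = 0.016). PLD replicate 2 had the lowest level of its group for 33 of the 39 genes. Mcm2 and Mcm5 differed by 0.67 ± 0.36 and 0.60 ± 0.52, Mcm4 by 0.10 ± 0.13 and Mcm3 by -0.43 ± 0.24, none of which passed the test. The 6 subunits form a ring with 1 copy of each, and their mRNA differences ran from -0.43 to 0.99.

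Of the helicase activation genes, 2 of 6 rose and 1 fell. Mcm10 stood at 2.65, 1.73 and 0.824 CPM in WT and at 5.35, 3.0 and 5.14 CPM in PLD (1.39 ± 0.50, adjusted p = 0.047). The GINS subunit Gins2 rose by 1.75 ± 0.54, on counts that the overlap with Gse1 makes uncertain. Gins3 (ENSMUSG00000031669.10, chromosome 8 from 95633453 to 95645060), another GINS subunit, went the other way. It stood at 3.12, 3.15 and 2.21 CPM in WT and at 1.34, 1.07 and 1.13 CPM in PLD, without overlap (-1.24 ± 0.26, adjusted p = 0.004). The remaining GINS subunits differed by 0.98 ± 0.42 (Gins1) and 0.16 ± 0.12 (Gins4), and the helicase cofactor Cdc45 by 0.38 ± 0.39, without a call.

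Among the polymerases and primase, 1 of 8 rose. Pole, the catalytic subunit of the leading-strand polymerase epsilon, stood at 6.29, 4.92 and 3.81 CPM in WT and at 13.8, 7.23 and 13.2 CPM in PLD, a change of 1.21 ± 0.43 (adjusted p = 0.046). Its partner Pole2 differed by -0.24 ± 0.31. The delta subunit Pold1 was 29.0, 31.9 and 28.9 CPM in WT and 43.8, 33.1 and 40.5 CPM in PLD, without overlap but short of the threshold (0.41 ± 0.15, adjusted p = 0.057). The primase subunits Prim1 and Prim2 differed by 0.54 ± 0.22 and 0.59 ± 0.22, and the polymerase alpha subunits Pola1 and Pola2 by 0.26 ± 0.30 and -0.41 ± 0.15.

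The clamp and 2 subunits of its loader rose. Pcna (ENSMUSG00000027342.14, chromosome 2 from 132249162 to 132253314), the sliding clamp, stood at 85.4, 85.2 and 103 CPM in WT and at 138, 126 and 115 CPM in PLD (0.49 ± 0.14, adjusted p = 0.019). Rfc5 (ENSMUSG00000029363.14, chromosome 5 from 117378103 to 117389047), a subunit of the clamp loader, had 10.7, 11.4 and 10.1 CPM in WT and 21.6, 18 and 20.6 CPM in PLD (0.92 ± 0.23, adjusted p = 0.0091). Rfc3 rose by 0.65 ± 0.21, while Rfc1, Rfc2 and Rfc4 differed by -0.17 ± 0.11, 0.38 ± 0.15 and 0.19 ± 0.29 without a call.

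The RPA subunits moved in opposite directions. Rpa1 (ENSMUSG00000000751.13, chromosome 11 from 75298166 to 75348324), the large subunit that binds single-stranded DNA, stood at 126, 185 and 155 CPM in WT and at 49.0, 54.0 and 53.2 CPM in PLD. It fell by 1.56 ± 0.21 log2 units (adjusted p = 0.0004), and every PLD library was below 55 CPM. Rpa2 (ENSMUSG00000028884.14, chromosome 4 from 132768332 to 132778752), its smaller partner, had 7.44, 7.41 and 8.34 CPM in WT and 13.6, 11.8 and 12.6 CPM in PLD, a rise of 0.73 ± 0.16 (adjusted p = 0.0046). Lig1 (ENSMUSG00000056394.17, chromosome 7 from 13277283 to 13311433), which joins Okazaki fragments, had 21.1, 22.4 and 25.0 CPM in WT and 62.7, 49.0 and 58.9 CPM in PLD (1.34 ± 0.27, adjusted p = 0.0035). Fen1 differed by 0.16 ± 0.55. All 10 endothelial markers were lower in PLD at 2 months, by the levels given above and none at 0, as was Rpa1, and their part in its fall was not tested.

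Of the deoxynucleotide genes, Rrm2, the regulated subunit of ribonucleotide reductase, rose from 2.18, 2.48 and 1.80 CPM to 6.51, 4.34 and 7.19 CPM (1.5 ± 0.49, adjusted p = 0.032). Rrm1, the large subunit, differed by 0.48 ± 0.18 (adjusted p = 0.054) and the thymidylate synthase gene Tyms by 0.38 ± 0.24 (adjusted p = 0.23). All 3 were positive and only Rrm2 was called.

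Calls for 7 of the 16 genes (Cdt1, Mcm7, Gins3, Rfc5, Rpa1, Rpa2 and Lig1) held in each of 14 alternative fits. The call of Pole was lost in 8 of 14, and those of Gmnn, Mcm10, Rfc3 and Rrm2 in 7 each. That of Pcna was lost in 5, that of Gins2 in 4, and those of Cdc6 and Mcm6 in 3 each. The number called fell to 7 without PLD replicate 1 and to 9 without PLD replicate 3, WT replicate 2 or WT replicate 3, and total-count scaling gave 7 higher and 3 lower, a setting in which all genes split into 2455 higher and 4190 lower instead of 3490 and 3601 and their median moved from -0.03 to -0.14.

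**Figure D2:**
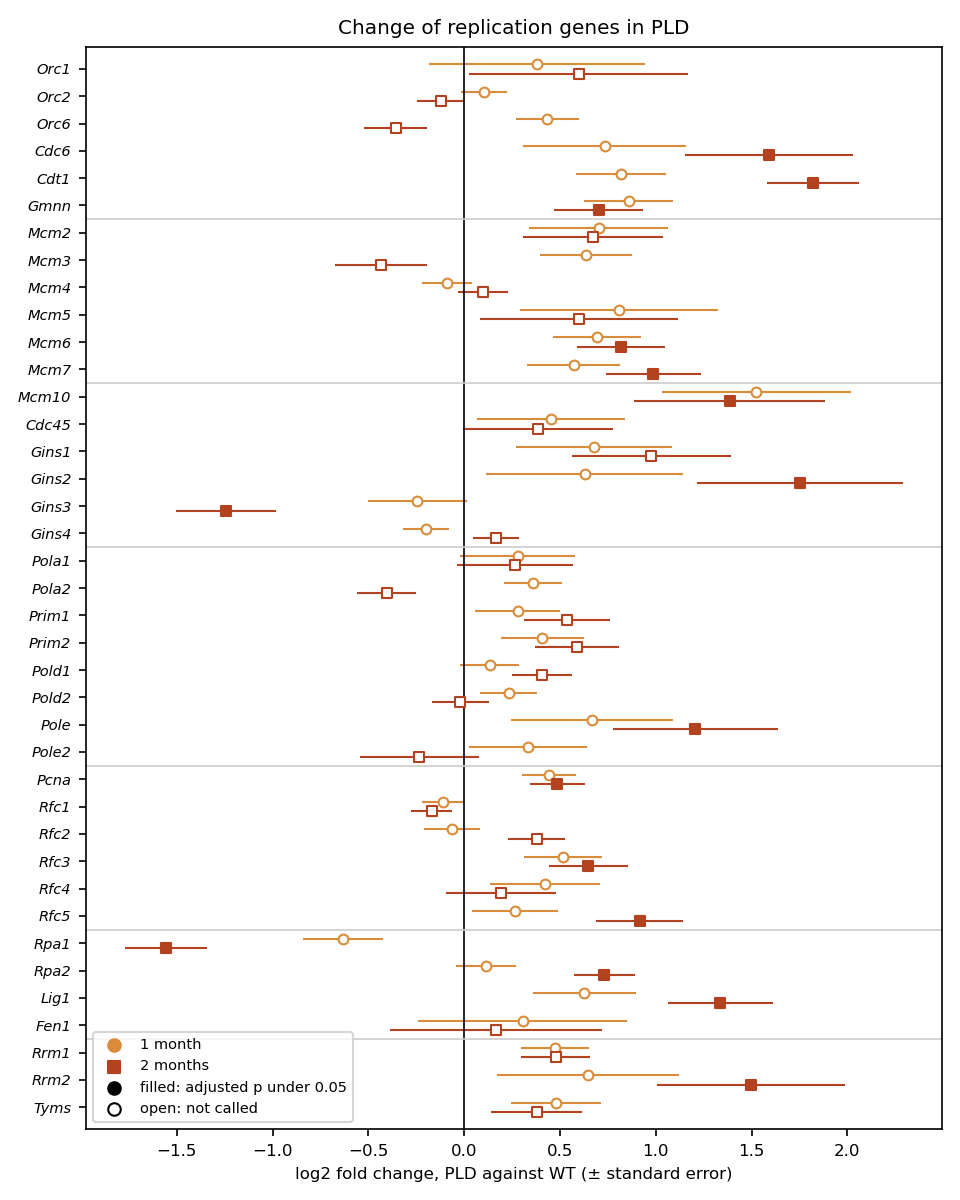
Log2 fold change of each gene in PLD against WT with its standard error, at 1 month (circles) and 2 months (squares), n = 3 libraries per group; filled symbols passed an adjusted p of 0.05. Filled symbols appear at 2 months, 14 to the right of 0 and 2 to the left (Gins3 and Rpa1), while no gene is filled at 1 month.

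At 1 month no replication gene was called. The edgeR test gave 0 of 39 higher, against 3.0% of all genes, and 0 lower, against 2.02%. At an unadjusted p under 0.05, 12 were higher and 1 lower (11.6% and 12.6% of all genes), DESeq2 called 5 and limma-voom 1. The difference was positive for 33 of 39, with a median of 0.43 against -0.05 for all genes. In 10 genes the PLD libraries lay wholly above WT, and in 0 wholly below, against 15.1% and 11.6% of all genes.

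The sizes at 1 month were largest for Mcm10, Gmnn and Cdt1. Mcm10 stood at 2.13, 1.25 and 4.05 CPM in WT and at 9.44, 7.31 and 4.81 CPM in PLD (1.53 ± 0.49, adjusted p = 0.093). Gmnn had 2.55, 2.57 and 3.46 CPM in WT and 5.71, 6.05 and 3.98 CPM in PLD (0.86 ± 0.23, adjusted p = 0.057). For both, WT replicate 3 was the highest of its group and PLD replicate 3 the lowest, and the groups did not overlap. Cdt1 had 8.08, 6.76 and 11.6 CPM against 16.2, 18.3 and 12.6 CPM (0.82 ± 0.24, adjusted p = 0.069). Rpa1 was lower here too, at 125, 130 and 85.6 CPM in WT and 73.4, 57.1 and 91.2 CPM in PLD, with overlap through replicate 3 of each group (-0.63 ± 0.21, adjusted p = 0.099). Lig1 showed how that library sits: 22.6, 21.0 and 47.0 CPM in WT against 49.8, 52.9 and 38.9 CPM in PLD.

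WT replicate 3, whose markers stood apart, had the highest level of its group for 28 of the 39 genes and reached or passed the lowest PLD library for 28. Without it, 11 genes were called higher and 1 lower, against 9.74% and 9.08% of all genes in that fit. These were Cdc6, Cdt1, Gmnn, Mcm6, Mcm7, Mcm10, Pcna, Rfc3, Rfc5, Lig1 and Rrm2, and Rpa1 on the lower side. Without PLD replicate 3 the number called was 1.

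Direction was mostly shared between the months, as it was over all genes tested. The sign at 1 month matched that at 2 months for 30 of 39 genes (76.9%), close to the 72.5% of all genes tested. It matched for all 16 genes called at 2 months, against 85.0% of all genes called there. Origin subunit Orc6, Mcm3 and Pola2 were among those that differed in sign, positive at 1 month (0.43 ± 0.16, 0.63 ± 0.24 and 0.36 ± 0.15) and negative at 2 months.

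**Figure D3:**
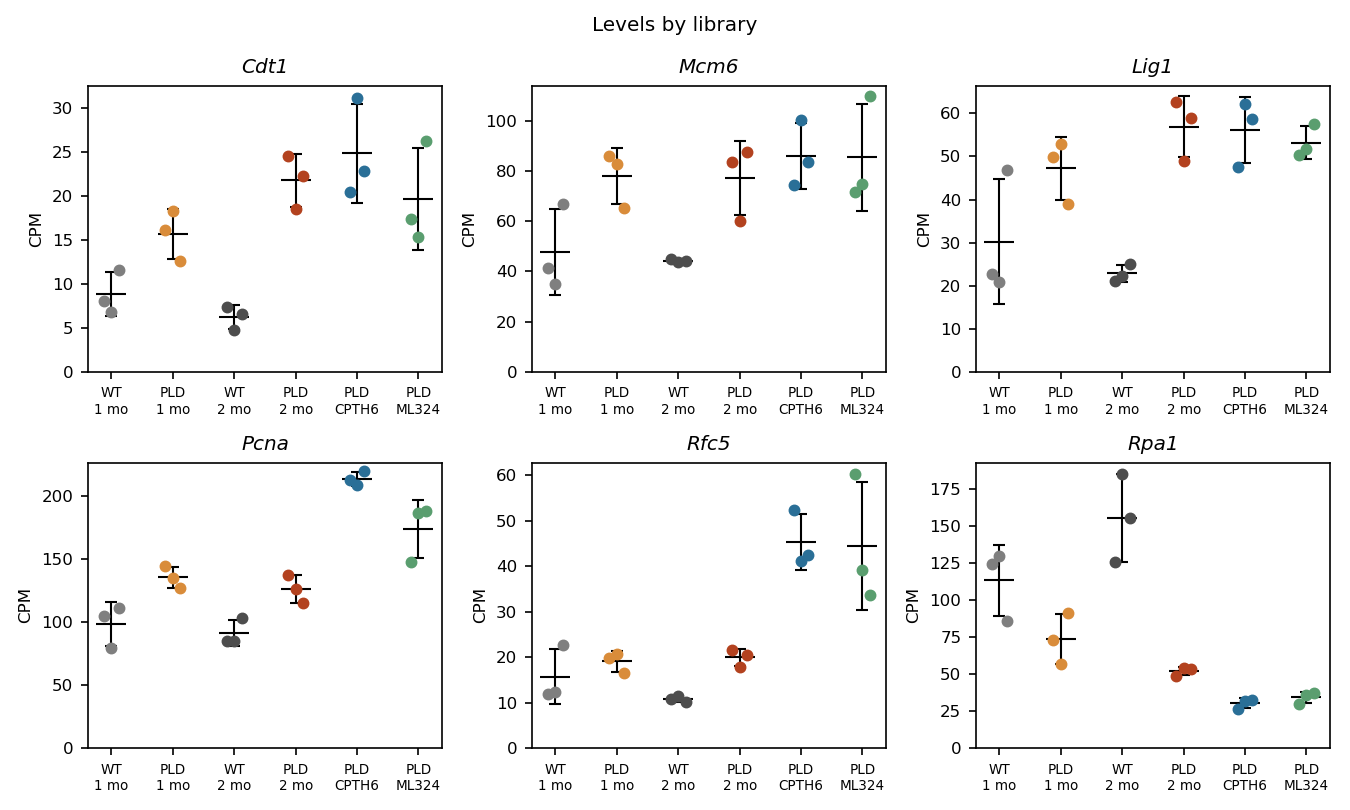
CPM in each library for 6 genes, with the mean and SD of each group of 3 as bars. Cdt1, Mcm6 and Lig1 stand higher in every PLD group than in WT at 2 months. At 1 month WT replicate 3 stood at 67.0 CPM for Mcm6 and 47.0 CPM for Lig1, above PLD replicate 3 at 65.3 and 38.9 CPM. Pcna and Rfc5 are highest in the treated groups, and Rpa1 steps down from 126 to 185 CPM in WT at 2 months to 26.4 to 37.3 CPM in the treated groups.

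Between 1 and 2 months, few replication genes were called within a genotype. In PLD, 0 of 39 rose and 1 fell, against 4.38% and 5.23% of all genes, and the median was -0.08. Total-count scaling moved the split over all genes from 778 higher and 928 lower to 529 and 1181. The gene that fell was Orc6 (ENSMUSG00000031697.12, chromosome 8 from 85299632 to 85308278), a subunit of the origin recognition complex, from 18.9, 17.7 and 20.1 CPM to 12.6, 12.8 and 10.1 CPM (-0.66 ± 0.16, adjusted p = 0.034). The groups did not overlap, yet the call was lost when any 1 of the 6 PLD libraries was left out, with 0 genes called each time. Pold1 had 0.45 ± 0.15 (adjusted p = 0.083). In WT, edgeR called 0 of 39, against 0.0507% of all genes (2 higher and 7 lower, or 79 and 11 under total-count scaling), 5 had an unadjusted p under 0.05 (15.1% of all genes), DESeq2 called 1 and limma-voom 0. The gene called by DESeq2 was Pola2, named after its value was seen, at 20.3, 18.9 and 18.4 CPM at 1 month and 26.0, 33.7 and 29.8 CPM at 2 months (0.62 ± 0.15, edgeR adjusted p = 0.12).

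The interaction of genotype and time asks whether the PLD difference changed between the months. For the 39 genes edgeR called 0, against 5.68% of all genes (453 higher and 555 lower, or 221 and 860 under total-count scaling), and 7 had an unadjusted p under 0.05 (23.7% of all genes). DESeq2 called 5 and limma-voom 0. The values nearest the threshold were -0.76 ± 0.21 for Pola2, -0.79 ± 0.23 for Orc6, -1.07 ± 0.34 for Mcm3, -0.92 ± 0.30 for Rpa1 and 1.00 ± 0.33 for Cdt1, with adjusted p from 0.063 to 0.10.

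In the treated PLD groups, 3 members stood apart from untreated PLD at 2 months under both compounds. Pcna and Rfc5 were higher and Rpa1 lower. With CPTH6, 3 of 39 genes were higher and 1 lower, against 9.39% and 13.7% of the 16502 genes tested. These are 1549 and 2269 genes, or 1109 and 2884 under total-count scaling. With ML324, 2 were higher and 1 lower, against 7.96% and 11.4%. Under both compounds the shares called higher and called lower were below those of all genes. Nothing particular to the replication genes is read from these counts. Both comparisons use the same untreated libraries, so their values are given side by side. The medians of the 39 were 0.06 and 0.09.

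Rfc5 showed the largest difference. It stood at 21.6, 18 and 20.6 CPM in PLD at 2 months, at 52.5, 41.2 and 42.5 CPM with CPTH6 and at 60.3, 39.2 and 33.7 CPM with ML324. All treated libraries were above all untreated ones, by 1.19 ± 0.21 with CPTH6 (adjusted p = 0.0043) and 1.20 ± 0.21 with ML324 (adjusted p = 0.0053). The other loader subunits did not follow, with differences from -0.12 ± 0.17 (Rfc3) to 0.31 ± 0.27 (Rfc4) under CPTH6, none called. Pcna stood at 213, 209 and 220 CPM with CPTH6 and at 148, 186 and 188 CPM with ML324, against 138, 126 and 115 CPM in PLD at 2 months. These were differences of 0.77 ± 0.11 (adjusted p = 0.0019) and 0.51 ± 0.11 (adjusted p = 0.014), and the call for ML324 was lost without ML324 replicate 3 or without PLD replicate 3.

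Rpa1 stood at 26.4, 32.0 and 32.6 CPM with CPTH6 and at 30.0, 35.9 and 37.3 CPM with ML324, below the 49.0, 54.0 and 53.2 CPM of untreated PLD. It was lower by -0.78 ± 0.11 (adjusted p = 0.0019) and -0.55 ± 0.11 (adjusted p = 0.011). Orc6 was higher with CPTH6 at 19.4, 16.7 and 14.8 CPM (0.53 ± 0.15, adjusted p = 0.029), a call lost without CPTH6 replicate 1 or 2 or PLD replicate 1 or 3, and stood at 13.8, 16.3 and 16 CPM with ML324 (0.43 ± 0.15, adjusted p = 0.071). Other genes that rose in PLD at 2 months were not called in the treated groups: Cdt1 had 20.5, 31.2 and 22.9 CPM with CPTH6 and 17.4, 15.3 and 26.2 CPM with ML324, and Lig1 lay between 47.7 and 62.2 CPM in all 6 treated libraries. The polymerase alpha subunit Pola1 and the primase subunit Prim1 differed by 0.69 ± 0.25 and 0.52 ± 0.19 with CPTH6 (adjusted p = 0.074 and 0.071) and by 0.49 ± 0.25 and 0.09 ± 0.19 with ML324, without a call.

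Other cell types also differed between these groups. The 10 stellate cell and fibroblast markers summed to 3333 to 7480 CPM in PLD at 2 months, 366 to 450 with CPTH6 and 290 to 988 with ML324. Of these markers 10 of 10 were called lower with CPTH6 and 9 of 10 with ML324. The endothelial markers summed to 641 to 1417, 170 to 297 and 122 to 618 CPM, with 3 of 10 and 2 of 10 called lower, and the 5 neutrophil markers to 6.22 to 15.5, 62.2 to 645 and 85.1 to 566 CPM, with 4 of 5 and 2 of 5 called higher. No stellate cell, fibroblast or endothelial marker was at 0 in all 3 libraries of a group, and 1 neutrophil marker was, in PLD at 2 months. Their part in the values of Rpa1, Pcna and Rfc5 was not tested.

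Between the compounds no replication gene differed by the test. The edgeR test called 0 of 39, against 0.00% of 15989 genes, and 2 had an unadjusted p under 0.05, against 12.6% of all genes. DESeq2 and limma-voom also called 0. The smallest p belonged to Rrm2, at 5.93, 8.69 and 8.76 CPM with CPTH6 and 3.88, 4.69 and 4.66 CPM with ML324, without overlap (-0.78 ± 0.23, adjusted p = 0.28). Prim1 (-0.44 ± 0.18) and Pcna (-0.25 ± 0.12) were also lower with ML324 in all libraries, and Rpa1 differed by 0.23 ± 0.13. ML324 replicate 3 had the highest level of its group for 32 of the 39 genes.

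Genes that work beside this machinery were read in the same fits, from 7 lists of 114 genes, also chosen with earlier results of these data known. At 2 months the mitosis markers moved with the replication genes: 8 of 16 rose in PLD, against 19.7% of all genes, 0 fell, and their median was 1.43. Those with the smallest adjusted p were the kinesin Kif23 at 3.71 ± 0.45, Cdc20, an activator of the anaphase-promoting complex, at 1.67 ± 0.33, the survivin gene Birc5 at 2.03 ± 0.45 and the mitotic cyclin Ccnb1 at 1.96 ± 0.53, whose call was lost without PLD replicate 3. The proliferation marker Mki67 stood at 5.78, 12.2 and 4.43 CPM in WT and at 17.5, 10.2 and 26.8 CPM in PLD (1.30 ± 0.46, adjusted p = 0.042), with overlap, and the call was lost in 9 of 14 alternative fits, which include those without PLD replicate 1 or 3, without WT replicate 1 or 3, with limma-voom and with total-count scaling. The cyclin Ccna2 rose by 1.62 ± 0.53 (adjusted p = 0.032), a call lost in 6 of 14 alternative fits, among them those without PLD replicate 1 or 3 or WT replicate 1 or 3, and the topoisomerase Top2a differed by 1.87 ± 0.74 (adjusted p = 0.065). At 1 month 3 of the 16 markers rose (Kif23 by 2.17 ± 0.42, Ccnb1 by 2.15 ± 0.50 and Cdc20 by 1.76 ± 0.33), their median was 1.25, and Mki67, Top2a and Ccna2 differed by 1.13 ± 0.44, 1.42 ± 0.71 and 1.29 ± 0.51 without a call. These 3 calls were lost without PLD replicate 1 or 2 or WT replicate 2, and those of Kif23 and Ccnb1 without WT replicate 1 too, so that Ccnb1 was lost in 7 of 14 alternative fits, Kif23 in 5 and Cdc20 in 4. The summed level of the markers was 28.8 to 62.8 CPM in WT and 107 to 201 CPM in PLD at 2 months.

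**Figure D4:**
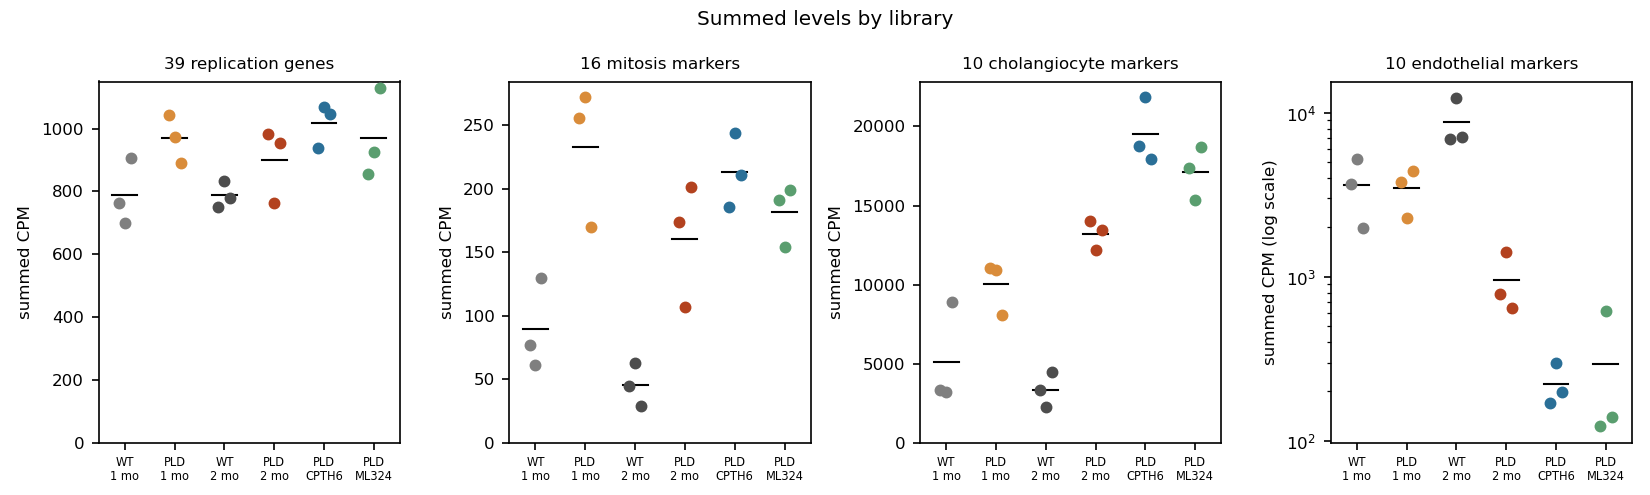
Summed CPM per library of the 39 replication genes, 16 mitosis markers, 10 cholangiocyte markers and 10 endothelial markers (log axis for the last only); horizontal lines are group means. The replication sum lies between 751 and 834 CPM in WT at 2 months and between 763 and 984 in PLD, with overlap, while the mitosis markers (28.8 to 62.8 and 107 to 201) do not overlap.

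The lists nearest to the fork held calls in both directions at 2 months, in shares near the 19.7% higher and 20.3% lower of all genes. Among licensing and firing partners, 2 of 13 rose and 3 fell, with a median of -0.02: the kinase subunit Dbf4 rose by 0.67 ± 0.15 and the helicase Mcm9 by 0.46 ± 0.12, while the origin subunit Orc4 (-0.49 ± 0.12) and the firing factor Mtbp (-0.56 ± 0.14) fell. Among fork partners, 3 of 15 rose and 2 fell: the fork protection pair Timeless (-1.35 ± 0.27) and Tipin (-0.73 ± 0.17) fell, and the polymerase delta subunit Pold3 (0.99 ± 0.25) and the RNase H2 subunit Rnaseh2a (0.60 ± 0.16) rose. Without a filter on low counts Dbf4, Mcm9, Orc4 and Mtbp were not called, and under total-count scaling Mcm9 and Rnaseh2a were not. Of 9 checkpoint genes 1 rose and 3 fell, including the 9-1-1 clamp subunits Hus1 (-1.31 ± 0.17) and Rad9a (-0.37 ± 0.13) and the kinase Atr (-0.41 ± 0.15). Etaa1, an activator of Atr, was the gene that rose (0.76 ± 0.26). The call of Hus1 held in all 14 alternative fits, while that of Rad9a was lost in 11 of 14, that of Atr in 9 and that of Etaa1 in 7. Leaving out PLD replicate 1, 2 or 3 or WT replicate 2 or 3 lost each of these 3, as did WT replicate 1 for Rad9a and Etaa1.

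Chromatin assembly, nucleotide supply and G1/S control were read in the same way, against the same 19.7% and 20.3%, and no list was tested against all genes. Of 11 chromatin assembly genes 2 rose and 0 fell, the histone chaperone subunits Chaf1b (1.33 ± 0.29) and Ssrp1 (0.43 ± 0.10). Of 18 nucleotide supply genes 5 rose and 2 fell, among them the purine synthesis gene Paics (1.15 ± 0.19) and the thymidine kinase Tk1 (0.98 ± 0.26), against the ribonucleotide reductase subunit Rrm2b (-0.52 ± 0.10) and the pyrimidine synthesis gene Cad (-0.86 ± 0.24), whose call was lost without WT replicate 2. Of 32 genes of G1/S control 9 rose and 4 fell: the CDK inhibitor Cdkn2b rose by 3.32 ± 0.39, the G1 kinase Cdk6 by 1.10 ± 0.20 and the phosphatase Cdc25a by 1.25 ± 0.24, while Rb1, the retinoblastoma gene, fell by 1.02 ± 0.17 on the log2 scale. The transcription factor E2f1 itself stood at 8.0, 7.81 and 1.49 CPM in WT and at 11.1, 3.22 and 8.27 CPM in PLD, with wide overlap (0.40 ± 0.54, adjusted p = 0.58). At 1 month 1 licensing partner rose (Dbf4, 1.20 ± 0.15), 2 genes of G1/S control rose (Cdkn2b by 2.75 ± 0.38 and Cdkn2a by 2.69 ± 0.44), and 1 nucleotide supply gene fell (Rrm2b, -0.49 ± 0.10, a call lost in 6 of 14 alternative fits). Leaving out PLD replicate 1 or 2 or WT replicate 1 or 2 lost the call of Rrm2b, and PLD replicate 1 that of Cdkn2a, and all 4 calls were lost in a fit of the 6 compared libraries. No gene of the other 3 replication lists was called then, where Chaf1b differed by 0.80 ± 0.28 and the chromatin remodeller Hells by 1.23 ± 0.45.

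In the treated groups, the histone chaperone Nasp and the histone mRNA binding protein Slbp were called higher than in PLD at 2 months under both compounds. Nasp stood at 48.8, 50.0 and 37.6 CPM in PLD, 110, 110 and 103 CPM with CPTH6 and 66.6, 82.1 and 79.4 CPM with ML324 (1.25 ± 0.12 and 0.79 ± 0.12), and Slbp differed by 0.74 ± 0.11 and 0.64 ± 0.11. The CDK inhibitor Cdkn1a was also higher, at 887, 855 and 692 CPM with CPTH6 and 678, 568 and 760 CPM with ML324 against 316, 369 and 265 CPM. These were differences of 1.36 ± 0.16 and 1.13 ± 0.16. Cdkn2a was lower by -1.94 ± 0.30 and -1.33 ± 0.30, and the polymerase epsilon subunit Pole4 higher by 0.67 ± 0.13 and 0.58 ± 0.13. Among mitosis markers 0 of 16 were called with CPTH6, against 9.39% of all genes called higher and 13.7% lower. With ML324, where these shares were 7.96% and 11.4%, Kif23 was higher (0.78 ± 0.21) and the kinases Cdk1 (-1.26 ± 0.35) and Plk1 (-1.15 ± 0.34) lower. Leaving out ML324 replicate 1 or 3 or PLD replicate 3 lost each of these 3 calls, as did ML324 replicate 2 and PLD replicate 1 for Cdk1, ML324 replicate 2 and PLD replicate 2 for Plk1, and PLD replicate 2 for Kif23.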

How the data were processed

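The authors deposited counts per gene, as whole numbers of read pairs assigned without strand to 1 of 55401 genes with featureCounts 1.6.0 on GENCODE vM25, per the file headers. Reads were aligned to mm10 with STAR 2.7.4a and handled with SAMtools 1.12, and DESeq2 1.26.0 was used, per the submitters' processing notes. From the counts, edgeR 4.0.16 (R 4.3.3) gave filterByExpr filtering, TMM scaling and quasi-likelihood F-tests with Benjamini-Hochberg adjustment over all genes, called at 0.05. The 12 untreated libraries shared 1 fit (8 residual degrees of freedom), the 6 treated ones another (4), and treated libraries with PLD at 2 months a further one (6). Standard errors are the log2 fold change over the square root of F. The fit was tested on simulated data for PLD against WT at 2 months, ML324 against CPTH6 and CPTH6 against PLD at 2 months. Such data held no library that stood apart, and their outcome is not given here.

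Members and lists were chosen with earlier results of these data known. All 39 members could be named, from other lists up to 4 called genes with the smallest adjusted p per comparison (2 with the smallest p where none was called), with Mki67, Top2a, Ccna2, E2f1, Krt19 and Epcam throughout. The promoters were to be those of the 3 called genes with the smallest and the 3 genes with the largest adjusted p at 2 months, and Mcm6 and the E2F pieces were added after the words were seen. Of the promoters under this rule, those of Cdt1 and Fen1 held no E2F word or CCAAT in the bases before the start and are not printed. Runs that touch annotated exons were cut to at most 30 bases or left out. The bases before Lig1, a called gene that the rule on adjusted p also picked, were left out because they touch annotated exons. The main fits did not pair libraries by replicate number. Alternatives were DESeq2 1.42.0, limma-voom 3.58.1, other scalings, no filter, a replicate block, other fits and each library left out. The fit without both WT libraries that stood apart was added after the data were seen.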

Additional observations from a re-analysis of the deposited data

Results flagged for a closer look

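No member differed between the months by the test of the interaction of genotype and time. Of the 114 related genes 4 did (edgeR adjusted p under 0.05), a smaller share than the 5.68% of all genes tested, so nothing particular to these lists is read from it. The interaction was -1.71 ± 0.37 for Timeless (0.36 ± 0.26 at 1 month and -1.35 ± 0.27 at 2 months) and -0.99 ± 0.24 for Tipin (0.26 ± 0.17 and -0.73 ± 0.17), its partner in fork protection. It was -1.27 ± 0.23 for the checkpoint clamp gene Hus1 (-0.04 ± 0.16 and -1.31 ± 0.17). It was 0.75 ± 0.18 for the pocket protein gene Rbl2 (-0.31 ± 0.13 and 0.44 ± 0.13), of whose exon bases 21.0% belong to other genes as well. Hus1 stood at 21.4, 23.5 and 19.5 CPM in WT and at 7.73, 9.48 and 8.42 CPM in PLD at 2 months, without overlap. Leaving out single libraries lost the call of Hus1 for PLD replicate 1 or WT replicate 2 at 2 months, and that of the other 3 genes for 5 or more libraries each.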

How the results depend on the processing

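Of the 39 genes, edgeR with TMM scaling called 0 in PLD against WT at 1 month, a number that was 5 with DESeq2, 1 with limma-voom, 7 with no filter on low counts, 12 without both WT libraries that stood apart (chosen after seeing the data) and 0 to 12 with single libraries left out. At 2 months the 16 called became 10 under total-count scaling and 7 to 20 with single libraries left out, 20 being the fit without PLD replicate 2. For 2 months against 1 month in PLD the 1 called became 2 with DESeq2, 2 in a fit of the 6 compared libraries and 0 in every fit with 1 library left out. In WT DESeq2 called 1, and for the interaction DESeq2 called 5, total-count scaling 2 and no filter 2. The number called between the compounds was 0 in each alternative. With the replicate number as a block, 12 were called at 2 months and 0 for time in PLD, where the call of Orc6 was lost. The counts of the other comparisons stayed the same under the block. Samples shared only a number: no comparison had every pair's correlation of deviations over 0.1, although each sample correlated best with its own number for time in WT and for ML324 against PLD, which is a hint from the data.

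No called member changed sign. Signs of uncalled genes did. Without both WT libraries, Rfc2 at 1 month was 0.131 and Pold2 at 2 months 0.0811, and with total-count scaling Mcm4 at 2 months was -0.00339. With single libraries left out, the log2 change ranged from -0.187 to 0.141 for Rfc2, from -0.0317 to 1.24 for Fen1 and from -0.179 to 0.127 for Hus1 at 1 month. At 2 months it ranged from -0.081 to 0.146 for Pold2, from -0.492 to 0.0775 for Pole2, from -0.0631 to 0.43 for Fen1 and from -0.0374 to 0.808 for E2f1, and for Prim1 with ML324 from -0.0388 to 0.27. The cause of these changes was not tested. Depth limits the scarcest genes, such as Gins3 and Fen1, whose lowest library held 11 counts.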
